A study of Mus musculus with 18 samples.

Results

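The 10 genes described here belong to the BCL2 family, whose proteins decide whether a cell keeps or loses its mitochondrial outer membrane and so lives or dies. They were chosen by name, as the count table rows for Bcl2, Bcl2l1, Mcl1, Bax, Bak1, Bcl2l11, Bid, Bad, Bbc3 and Pmaip1, and all 10 had a row among the 25965 rows measured. RNA was measured by polyA sequencing in CD45.2+ B220+ Mac1- cells, a flow-sorted population meant to hold B cells, from the femoral marrow of C57BL/6 mice aged 12 to 16 months. The heterozygous animals were Smchd1[del/+] Vav.Cre[T/+], with 5 female and 4 male libraries, and the del/del animals were Smchd1[del/del] Vav.Cre[T/+], again with 5 female and 4 male libraries. Smchd1 encodes a chromatin silencing protein best known for its part in X inactivation. Vav-Cre acts throughout blood-forming cells, so the deletion was not limited to B cells, and every animal, controls included, carried the Cre and at least 1 deleted allele. Each library came from an animal with its own number. The comparisons ask whether the balance of survival and death transcripts differed when the remaining Smchd1 allele was lost, and whether it differed between the sexes.

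The family has 3 kinds of protein. The survival proteins BCL2, BCL-XL (from Bcl2l1) and MCL1 bind and hold back the others. The effectors BAX and BAK (from Bak1) form pores in the outer membrane. The BH3-only proteins BIM (from Bcl2l11), BID, BAD, PUMA (from Bbc3) and NOXA (from Pmaip1) carry death signals to the survival proteins, the effectors or both. In B cell development MCL1 is needed at most stages, BCL-XL is known for its role in immature, dividing precursors, BCL2 for its role in pro-B cells and in resting mature cells, and BIM for the removal of self-reactive cells. Much of the control of these proteins acts after transcription, which RNA counts do not show.

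Total counts ran from 9788112 to 29405395 per library. The 9 B cell genes set as a check, which include Cd79a, Pax5 and Ebf1, had reads in all 18 libraries, with mean log2 CPM between 9.62 and 9.88 (CPM, the usual count scaled to library depth, here with TMM factors). Genes of neutrophils, plasmacytoid dendritic cells, red cell precursors and T or NK cells were also present in every library, and in bulk RNA fewer cells of a type and less RNA per cell cannot be told apart. Smchd1 itself was at 248 ± 17.4 CPM (SD, n = 5) in heterozygous and 141 ± 17.6 (SD, n = 5) in del/del females, and at 298 ± 21.6 (SD, n = 4) and 177 ± 15.7 (SD, n = 4) in the males. The groups did not overlap in either sex, with log2 differences of -0.82 (SE 0.09, edgeR quasi-likelihood adjusted p = 0.00119) and -0.74 (SE 0.08, adjusted p = 0.00888).

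Promoter sequence is shown for 3 genes: Bcl2 and Bcl2l1, because their levels were opposite between the sexes, and Bbc3, a known p53 target with the largest fitted genotype difference in females. Each is a RefSeq window of build GRCm38.p6, from 250 bases before to 50 bases after the annotated start, written along the gene's own strand, and where RefSeq gives several starts it is that of the most upstream one. Capitals mark GC boxes (GGGCGG on either strand) in Bcl2 at chr1:106714241-106714540, minus strand, and there is none in Bcl2l1 at chr2:152831679-152831978, minus strand. In Bbc3 at chr7:16309333-16309632, plus strand, capitals mark a pair of p53 core motifs with 6 bases between them, and its GC boxes are left in lower case.
Bcl2: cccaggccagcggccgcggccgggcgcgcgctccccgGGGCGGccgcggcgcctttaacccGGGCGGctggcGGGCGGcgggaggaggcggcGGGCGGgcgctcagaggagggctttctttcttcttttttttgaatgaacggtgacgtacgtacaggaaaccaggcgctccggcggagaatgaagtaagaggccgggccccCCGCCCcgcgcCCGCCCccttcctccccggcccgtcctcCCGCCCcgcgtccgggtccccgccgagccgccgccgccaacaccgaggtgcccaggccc
Bcl2l1: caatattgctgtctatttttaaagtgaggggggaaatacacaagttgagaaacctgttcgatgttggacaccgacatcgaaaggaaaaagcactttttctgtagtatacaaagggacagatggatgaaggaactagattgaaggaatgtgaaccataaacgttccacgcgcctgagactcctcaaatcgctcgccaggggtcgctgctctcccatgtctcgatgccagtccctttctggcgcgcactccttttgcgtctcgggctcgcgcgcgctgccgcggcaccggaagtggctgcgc
Bbc3: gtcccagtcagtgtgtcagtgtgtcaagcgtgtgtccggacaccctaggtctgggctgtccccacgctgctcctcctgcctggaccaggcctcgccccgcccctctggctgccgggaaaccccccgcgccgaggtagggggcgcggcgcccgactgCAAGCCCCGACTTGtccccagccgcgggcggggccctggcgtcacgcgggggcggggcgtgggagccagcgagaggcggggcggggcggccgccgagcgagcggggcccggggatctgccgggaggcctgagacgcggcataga
The Bcl2 window holds 7 GC boxes and 44 CG dinucleotides, the Bbc3 window 5 and 34, and the Bcl2l1 window 0 and 22, beside a median of 7 CG dinucleotides over all 32851 promoter windows. RefSeq gives 2 further windows each for Bcl2l1, with 0 GC boxes and 1 and 14 CG dinucleotides, and for Bbc3, with 4 and 7 GC boxes and no p53 pair. RefSeq gave 15 windows for 9 of the genes. A GC box was found in 10 of the 15 windows (66.7%), beside 35.7% of all promoters, and the paired p53 core in 1 of 15 windows, that of Bbc3, beside 7.22% of all promoters. Windows of the same gene are not independent, and 2 of those of Bbc3 overlap. By gene, 7 of the 9 had a GC box in any window, and no such count by gene was made over all promoters. The paired core was searched for after a p53 half-site motif had given no match in Bbc3. That motif was RRRCWWGYYY, where R is A or G, W is A or T and Y is C or T. The half-site was found in 1 of 15 windows, that of Bax, beside 8.36% of all promoters. A match is a description of letters, and no binding was measured.

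Levels of different genes were set side by side as CPM per kb of exon. Mcl1 (ENSMUSG00000038612, mm10 chromosome 3, 95658721 to 95663176) was far the most abundant, at 241 ± 28.4 CPM per kb of exon (SD, n = 18), and its lowest library was above the highest library of every other member. The effectors followed, with Bax (ENSMUSG00000003873, chromosome 7, 45461695 to 45466898) at 34.4 ± 2.99 and Bak1 (ENSMUSG00000057789, chromosome 17, 27019810 to 27029009) at 33.4 ± 5.92. These could not be ordered, since Bax was above Bak1 in 9 of 18 libraries. Bcl2l1 (ENSMUSG00000007659, chromosome 2, 152780668 to 152831728) was at 26.7 ± 9.26, Bid (ENSMUSG00000004446, chromosome 6, 120891930 to 120916853) at 14.2 ± 1.25 and Bcl2 (ENSMUSG00000057329, chromosome 1, 106538178 to 106714274) at 9.06 ± 3.24 CPM per kb of exon. Bcl2 was above Bad in only 11 of 18 libraries. Bad (ENSMUSG00000024959, chromosome 19, 6941861 to 6951898) was at 7.97 ± 0.912, Bcl2l11 (ENSMUSG00000027381, chromosome 2, 128126038 to 128162547) at 6.66 ± 1.14 and Pmaip1 (ENSMUSG00000024521, chromosome 18, 66458604 to 66465550) at 5.05 ± 1.46. The PUMA gene Bbc3 (ENSMUSG00000002083, chromosome 7, 16309616 to 16318205) was lowest, at 2.19 ± 0.581, and below Pmaip1 in all 18 libraries. Apart from Mcl1 against Bax, the ranges of neighbours in this order overlapped. Parts of the exons of 5 members are shared with another gene in the GENCODE M21 annotation, most of all 25.5% of Bak1 exon bases with Ggnbp1 and 20.5% of Bad exon bases with Gpr137, both on the opposite strand. No source used here gives the strand setting of the counting, so such pairs share an unknown number of reads.

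**Figure D1:**
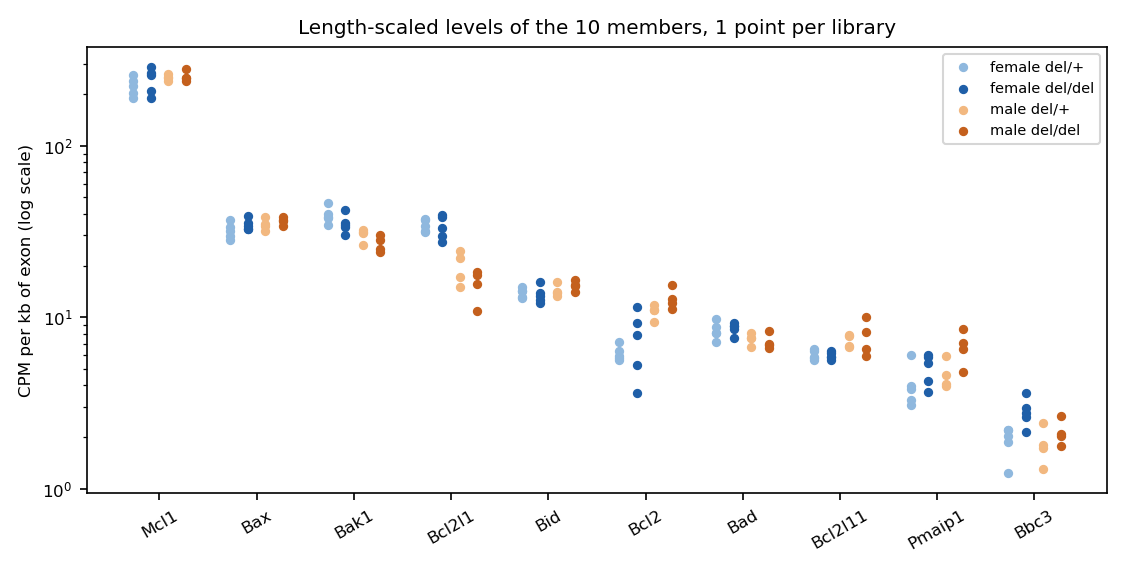
CPM per kb of exon on a log axis for the 10 members, 1 point per library, coloured by sex and genotype, in the order of their means. Mcl1 lies above every other member in all 18 libraries, while neighbours further down overlap.

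Among the survival genes, Mcl1 read 888, 650, 763, 695 and 818 CPM in the heterozygous females and 980, 650, 887, 712 and 905 in the del/del females. In males it read 847, 816, 864 and 895 CPM in heterozygous and 962, 850, 845 and 810 in del/del libraries. The genotypes lay over each other in both sexes. Bcl2 read 57.8, 51.6, 54.3, 65.9 and 52.7 CPM in heterozygous females, a narrow range, and 72.0, 33.2, 84.8, 48.5 and 105 in del/del females. Del/del females 1, 3 and 5 were above every heterozygous female and del/del females 2 and 4 below every one, so the group's coefficient of variation was 41.4% beside 10.2% in heterozygous females. In males Bcl2 read 86.3, 101, 108 and 101 CPM in heterozygous and 117, 102, 111 and 142 in del/del libraries, which overlapped.

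Bcl2l1 read 169, 157, 146, 143 and 171.1 CPM in heterozygous females and 151, 181, 136, 177 and 126 in del/del females. The order of the del/del females was the reverse of that for Bcl2: libraries 2 and 4, lowest for Bcl2, were the highest of all females for Bcl2l1, and libraries 3 and 5, highest for Bcl2, were the lowest. In males Bcl2l1 read 112, 78.2, 101 and 68.8 CPM in heterozygous and 83.9, 80.5, 71.4 and 49.9 in del/del libraries. The male genotypes overlapped here too, and the del/del library highest for Bcl2 was the lowest of all for Bcl2l1.

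Of the effectors, Bax ran from 44.6 to 57.8 CPM in heterozygous and from 51.4 to 61.5 in del/del females, and from 50.4 to 60.9 and 53.7 to 60.4 in the males. Bak1 read 83.4, 95.9, 92.6, 111 and 91.2 CPM in heterozygous and 73.0, 101, 85.5, 83.2 and 80.9 in del/del females. It read 77.1, 74.9, 63.6 and 75.3 CPM in heterozygous and 72.1, 68.1, 58.1 and 59.9 in del/del males. In both sexes the mean of Bak1 was lower for del/del, with overlapping groups.

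Among the BH3-only genes, Bcl2l11, the gene for BIM, lay between 45.1 and 52.4 CPM in heterozygous and 45.4 and 51.1 in del/del females, while in males it read 54.4, 62.6, 53.8 and 63.5 in heterozygous and 47.4, 65.7, 52.7 and 80.03 in del/del libraries. Bid, whose protein links death receptors to mitochondria, stayed between 42.9 and 58.2 CPM in all 18 libraries, and Bad, whose protein is held in check by growth factor signalling, between 16.8 and 24.9. Bbc3 and Pmaip1, both p53 targets, were the scarcest in reads, with 35 to 163 and 99 to 499 reads per library. Bbc3 read 4.69, 3.99, 2.62, 4.69 and 4.29 CPM in heterozygous and 5.53, 5.89, 6.27, 4.56 and 7.63 in del/del females. All but 1 of the del/del females were above every heterozygous female. In males Bbc3 read 3.65, 5.15, 3.83 and 2.77 CPM in heterozygous and 3.78, 5.66, 4.44 and 4.29 in del/del libraries, with more overlap. Pmaip1 read 9.04, 8.41, 10.4, 16.4 and 10.9 CPM in heterozygous and 11.6, 9.98, 14.7, 16.0 and 16.4 in del/del females. In males it read 11.2, 10.8, 16.2 and 12.5 CPM in heterozygous and 23.3, 13.1, 19.4 and 17.8 in del/del libraries. Only del/del male 2 lay within the heterozygous range.

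**Figure D2:**
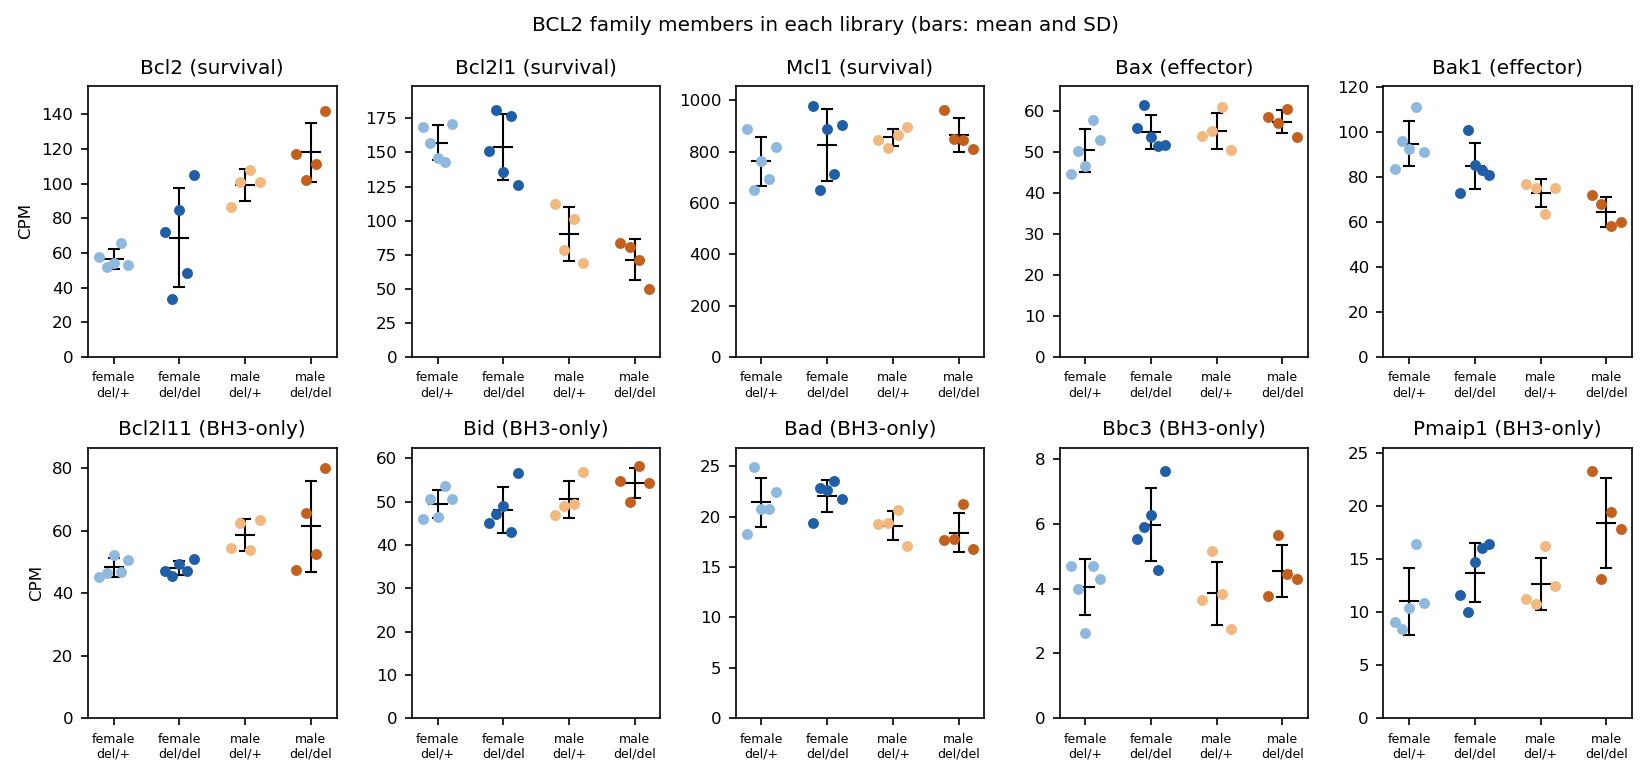
CPM of each member in every library, in 1 panel per gene with the vertical axis from 0, grouped by sex and genotype, with bars for the mean and SD (n = 5 per female and 4 per male group). Bcl2 is spread widely in del/del females, from 33.2 to 105 CPM, and Bcl2l1 is higher in all females than in any male.

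No member was called between genotypes. The count of members at an adjusted p under 0.05 (edgeR quasi-likelihood, Benjamini-Hochberg over all genes tested) was 0 of 10 in females, where 0.252% of genes were called, 0 of 10 in males, where 0.119% were, and 0 of 10 over both sexes with sex as a term, where 0.556% were. Nor was any member called under DESeq2, voom or any other alternative tried. No member had separate genotype groups in either sex, beside 1.05% of genes in females and 1.97% in males. Bbc3 and Pmaip1 had the largest fitted differences in females and in males, respectively. Bbc3 was 1.47-fold higher in del/del females (log2 difference 0.55, SE 0.20, 95% interval 0.11 to 0.99, unadjusted p = 0.0177, edgeR adjusted p = 0.922) and differed by 0.24 (SE 0.22) in males. Pmaip1 was 1.46-fold higher in del/del males (log2 difference 0.55, SE 0.19, 95% interval 0.13 to 0.96, unadjusted p = 0.0155, edgeR adjusted p = 0.9998) and differed by 0.31 (SE 0.20) in females. Over both sexes the log2 differences were 0.42 (SE 0.15, unadjusted p = 0.0110, edgeR adjusted p = 0.496) for Bbc3 and 0.41 (SE 0.14, unadjusted p = 0.00924, edgeR adjusted p = 0.458) for Pmaip1.

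Of the other members, Bak1 was at a log2 difference of -0.17 (SE 0.07, unadjusted p = 0.0239, edgeR adjusted p = 0.615) over both sexes. Bcl2 was at 0.27 (SE 0.24) in females, 0.26 (SE 0.11, unadjusted p = 0.0362, edgeR adjusted p = 0.9998) in males and 0.27 (SE 0.15, adjusted p = 0.800) over both. Bcl2l1 was at -0.04 (SE 0.11) in females, -0.32 (SE 0.18) in males and -0.16 (SE 0.11, 95% interval -0.39 to 0.07) over both sexes. Over both sexes the intervals of Mcl1, Bax, Bcl2l11, Bid and Bad all lay between -0.15 and 0.24 on the log2 scale. At an unadjusted p under 0.05 there were 1 of 10 members in females, 2 of 10 in males and 3 of 10 over both sexes, beside 4.3%, 3.34% and 6.76% of all genes. Over both sexes the median log2 difference of the members was 0.05, with 8 of 10 above 0, beside a median of -0.0005 and 49.9% above 0 over all genes. Marker lists leaned with genotype as well: all 22 cell cycle genes were below 0 in the same fit (median -0.18, none called), 15 of 16 plasmacytoid dendritic cell genes above 0 (median 0.37, 1 called) and 15 of 16 red cell genes below 0 (median -0.68, none called). Of the B cell stage lists, 13 of 14 pro-B and pre-B cell genes were below 0 (median -0.26, none called, with 9 lower at an unadjusted p under 0.05 in males and 0 in females) and 13 of 15 mature B cell genes above 0 (median 0.10, none called), as were 13 of 16 myeloid genes (median 0.20, none called). Of 14 T and NK cell genes 10 were below 0 (median -0.22, none called). The signs were the same in both sexes for 7 of 10 members (70%), beside 63.2% of all genes. The interaction of sex and genotype was called for 0 of 10 members and 0% of genes by edgeR. Its smallest unadjusted p among the members was 0.185, for Bcl2l1, where 1.45% of all genes were under 0.05 and DESeq2 called 4 genes. In the authors' deposited table, which holds their own tests in each sex, Bbc3 was at a log2 fold change of 0.57 (p = 0.0165, adjusted p = 0.880) in females and Pmaip1 at 0.55 (p = 0.0166, adjusted p = 0.9998) in males.

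**Figure D3:**
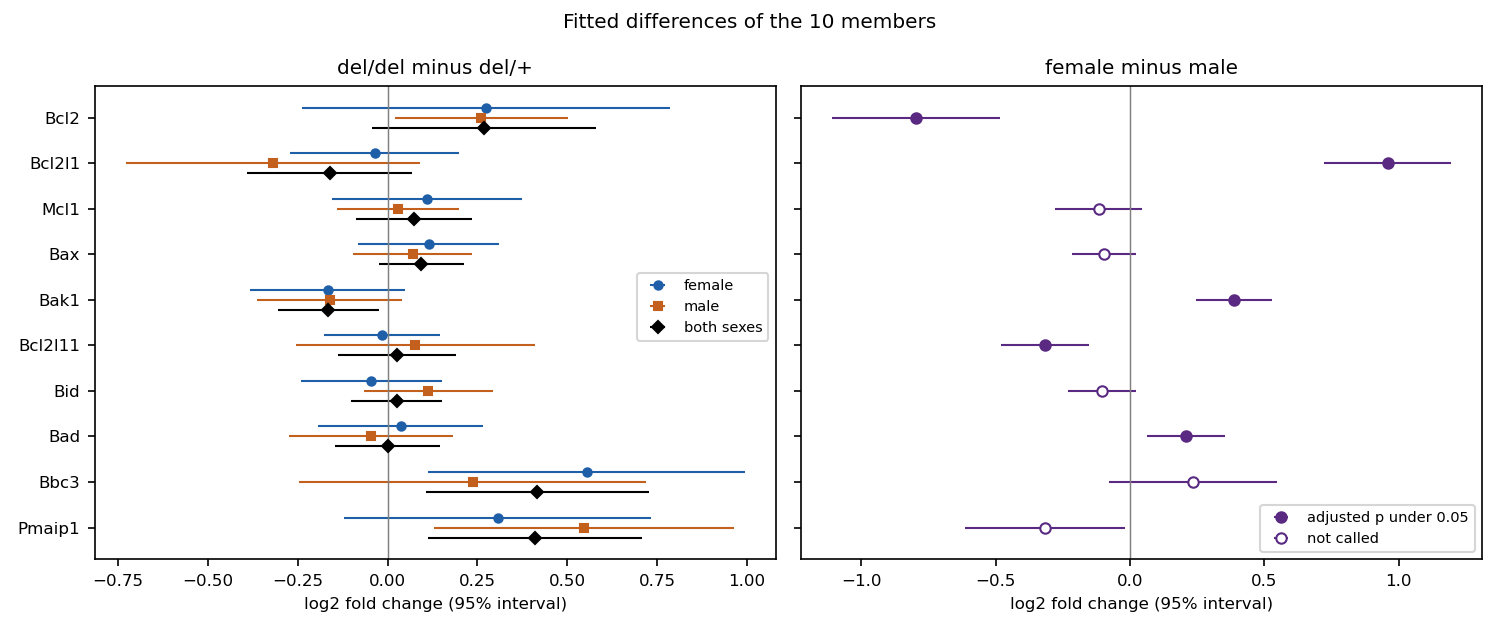
Fitted log2 fold changes with 95% intervals for the 10 members, del/del against heterozygous (left: females, males and both sexes) and female against male (right, filled where the adjusted p was under 0.05). On the left Bbc3 in females and Pmaip1 in males both lie at 0.55, with no member called, and on the right Bcl2 and Bcl2l1 lie at -0.80 and 0.96.

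Females and males differed more. With genotype as a term, 5 of 10 members (50%) were called, where 42.6% of all genes were, so the share of members was near the background. Of these 3 were higher in females, as were 21.5% of all genes, and 2 lower, as were 21.1%. Bcl2l1 was 1.94-fold higher in females (log2 difference 0.96, SE 0.11, edgeR adjusted p = 2.95e-06), with every female above every male. The sexes did not overlap, in either direction, in 6.51% of genes. Bcl2 was lower in females, at a log2 difference of -0.80 (SE 0.15, edgeR adjusted p = 0.000312). Bak1 was higher in females (0.39, SE 0.07, adjusted p = 0.000174), as was Bad (0.21, SE 0.07, adjusted p = 0.0201), and Bcl2l11 was lower (-0.32, SE 0.08, adjusted p = 0.00329). Mcl1 (-0.12, adjusted p = 0.240), Bax (-0.10, adjusted p = 0.179), Bid (-0.10, adjusted p = 0.179), Bbc3 (0.23, adjusted p = 0.220) and Pmaip1 (-0.32, adjusted p = 0.0808) were not called. Among heterozygous libraries alone, Bcl2 and Bcl2l11 in every female were below every male, and Bcl2l1 and Bak1 above, where 23.7% of genes had separate sexes. In those libraries Bad was no longer called (0.16, SE 0.11, edgeR adjusted p = 0.298). The sexes were deposited in separate tables, so sex and table cannot be told apart. Leaving out female heterozygous library 4 or male del/del library 2 brought Pmaip1 under the threshold (-0.41, adjusted p = 0.0140, and -0.36, adjusted p = 0.0483).

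The counts of Bcl2 and Bcl2l1 in the same library give a ratio that needs no scaling between libraries. Bcl2 reads per Bcl2l1 read were 0.341, 0.328, 0.371, 0.461 and 0.308 in heterozygous females and 0.476, 0.184, 0.624, 0.275 and 0.832 in del/del females. In males they were 0.773, 1.28, 1.07 and 1.47 in heterozygous and 1.40, 1.26, 1.55 and 2.84 in del/del libraries. Heterozygous females had fewer Bcl2 than Bcl2l1 reads in every library, at 0.362 ± 0.0601 (SD, n = 5), and heterozygous males were at 1.15 ± 0.300 (SD, n = 4), with no overlap. Del/del female 5, at 0.832, was within the heterozygous male range. A ratio of reads does not compare molecules, since the Bcl2 exons are longer.

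Markers of B cell stage and of other cell types also differed between the sexes. Of the 16 mature B cell markers listed, 15 had a row and none was at 0. Of these 14 were lower and 1 higher in females, and their summed level was 6798 to 14869 CPM in females and 16138 to 22710 CPM in males. All 22 cell cycle genes were higher in females, with summed levels of 3438 to 6781 CPM beside 2683 to 4004 CPM. Of 16 plasmacytoid dendritic cell genes, 13 were higher in females, at 3553 to 5279 CPM beside 3010 to 3622 CPM, though several of these (Spib, Ly6d, Irf8, Tcf4) are also B lineage genes. Of 14 pro-B and pre-B cell genes 13 were above 0 and 9 called higher in females (3522 to 5331 CPM beside 2287 to 4076 CPM). All 5 plasma cell genes tested were called higher, with Irf4 the most abundant at a mean of 502 CPM. That list named 8 genes, of which 6 had a row, and Tnfrsf17, at a mean of 0.260 CPM, was not tested. Among the del/del females, the mean log2 CPM of mature B cell genes was 8.55, 7.88, 8.57, 8.12 and 9.004 for libraries 1 to 5, and of cell cycle genes 7.04, 7.71, 7.25, 7.70 and 6.78. Libraries 2 and 4, lowest for Bcl2, were the lowest for the mature B cell genes and the highest for the cell cycle genes. The dendritic cell genes, at 7.02, 6.36, 7.13, 6.10 and 7.28, were also lowest in libraries 2 and 4, which is the reverse of their direction against Bcl2 between the sexes. The pro-B and pre-B cell genes, at 7.62, 7.54, 7.37, 7.76 and 7.21, were highest in library 4 but did not follow the order of Bcl2. The part of these markers in the members' values was not tested beyond the fits that follow.

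With the mature B cell level as a covariate, an alternative chosen after seeing the data, 0 of 10 members were called between the sexes, where 628 genes were. Bcl2 was then at a log2 difference of 0.26 (SE 0.15, edgeR adjusted p = 0.377), the opposite direction, and Bcl2l1 at 0.49 (SE 0.19, adjusted p = 0.180). With the cell cycle level as a covariate only Bcl2l1 stayed called (0.73, SE 0.17, adjusted p = 0.0100), and Bcl2 was at -0.18 (SE 0.17, adjusted p = 0.576). With the dendritic cell level, Bcl2 (-1.31), Bcl2l1 (1.05), Bak1 (0.46) and Mcl1 (-0.38, adjusted p = 0.00830) were called, and Bcl2l11 and Bad were not (adjusted p = 0.281 and 0.0798). The marker levels themselves differ by sex, so such a fit has little room to separate them. For genotype, the fitted Bcl2 difference with the mature B cell covariate was 0.08 (SE 0.10) in females and 0.20 (SE 0.10) in males, beside 0.27 (SE 0.24) and 0.26 (SE 0.11) without it.

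**Figure D4:**
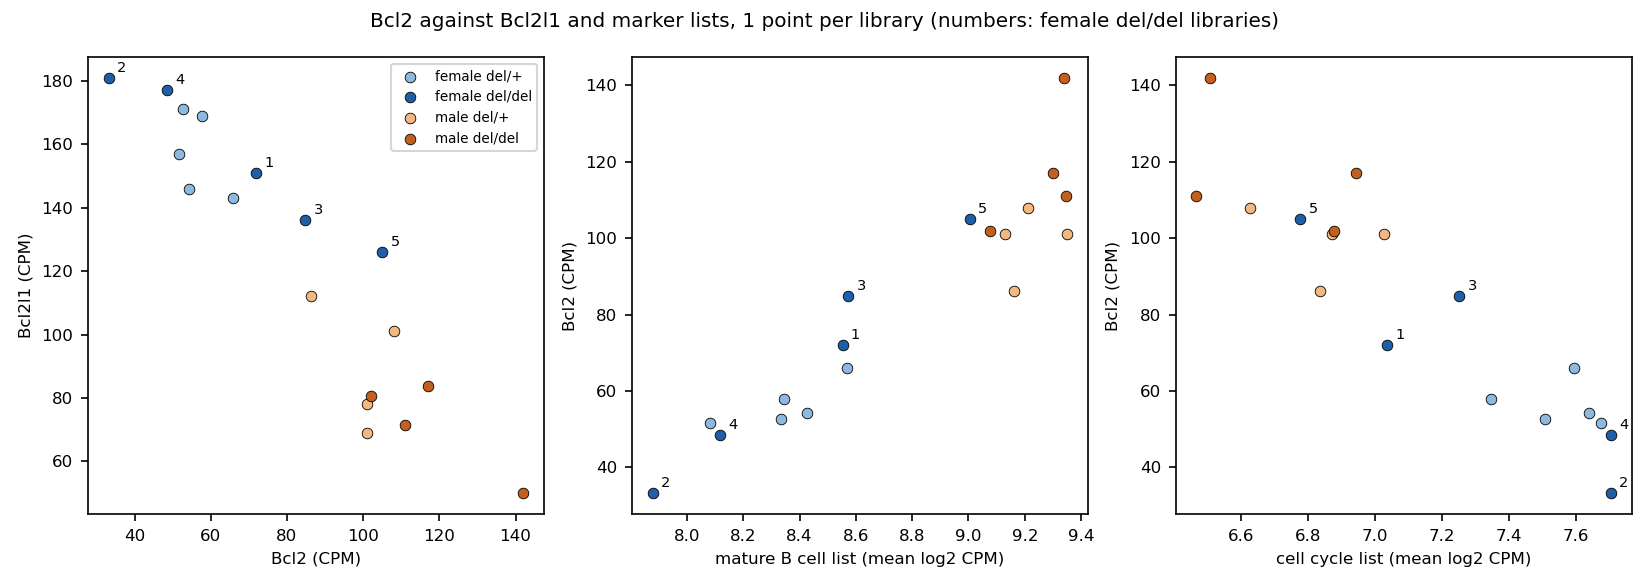
Bcl2l1 against Bcl2 in CPM (left), and Bcl2 in CPM against the mean log2 CPM of mature B cell genes (middle) and cell cycle genes (right), 1 point per library, with the del/del females numbered. Bcl2l1 is lower where Bcl2 is higher, and del/del females 2 and 4 sit at the low end and 5 at the high end of Bcl2 among females.

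To see how the members varied within groups, the mean of each of the 4 groups was subtracted from log2 CPM, and correlations over the 18 libraries are given as a description. The libraries share their depth and cell makeup across genes. Bcl2 varied with the mature B cell genes (r = 0.92), and against the cell cycle genes (r = -0.76) and the pro-B and pre-B cell genes (r = -0.51). Its coefficient of variation was 41.4% in del/del and 10.2% in heterozygous females, and 14.7% and 9.16% in the males. All correlations of Bcl2 given here therefore rest mostly on the 5 del/del females described above. Bcl2l1 varied against the T and NK cell genes (r = -0.70) and the mature B cell genes (r = -0.57) and with the pro-B and pre-B cell genes (r = 0.57). Bak1 varied with the cell cycle genes (r = 0.69), Mcl1 with the mature B cell (r = 0.66) and dendritic cell genes (r = 0.65), and Bid with the myeloid genes (r = 0.71). Between members the strongest were Bcl2l1 with Bcl2l11 (r = -0.71), Bcl2 with Bcl2l1 (r = -0.63) and Bcl2 with Mcl1 (r = 0.62). Among 11996 genes, those most like Bcl2 were Nr3c2, a steroid receptor gene, and St8sia6, a sialyltransferase gene (both r = 0.95), and those most like Bcl2l1 were the kinase gene Nuak1 (r = 0.96) and the cell cycle transcription factor gene E2f2 (r = 0.95). The nearest genes to Mcl1 were Kif3c (r = 0.94) and Kctd11 (r = 0.92), to Bak1 Bysl (r = 0.91) and Acot7 (r = 0.88), to Bax Mecr and Dnajc17 (both r = 0.84), and to Bid Crim1 and Paqr7 (both r = 0.89). For Bcl2l11 they were Fkbp5 (r = 0.87), a glucocorticoid response gene, and Crlf3 (r = 0.84), and for Bad Arl2 and Irs2 (both r = 0.81). For Bbc3 they were Xrcc6bp1 (r = 0.83) and Foxd2 (r = 0.81), and for Pmaip1 Tnfrsf26 (r = 0.85) and Mthfs (r = 0.82).

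The rest of the pathway was read from lists chosen by role, and no gene of these lists was called between genotypes in either sex or over both. Of 6 other survival members, 3 were tested. The A1 genes Bcl2a1b and Bcl2a1d were at log2 differences of 0.33 (SE 0.20) and 0.37 (SE 0.27) over both sexes and Bcl2l2 at 0.06, but A1 copies are nearly identical and their counts are uncertain. Of 10 other death members 7 were tested, with a median of -0.03, and the mitophagy receptor gene Bnip3l was at -0.13 (SE 0.05, unadjusted p = 0.0287), Bok at -0.34 (SE 0.20) and Bcl2l13 at -0.05. The 17 genes of the apoptosome and caspase list, which also holds inhibitor of apoptosis genes, had a median of -0.02. Of those inhibitor genes, Birc3 was at 0.14 (SE 0.06) and Birc5 at -0.21 (SE 0.11). Of 9 death receptor genes, Fasl was at -0.59 (SE 0.22, unadjusted p = 0.0164), Tnfsf10 at -0.22 and Tnfrsf1a at 0.24. Fasl was scarce, at a mean of 1.91 CPM. Most T and NK cell genes listed were also below 0, and a part of such cells in the Fasl value was not tested. Of 13 tested survival receptor and signalling genes, Nfkb2 was at 0.19 (SE 0.08), Rel at 0.15 (SE 0.08) and Cd40 at 0.17 (SE 0.12).

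Genes that act on the members or share their control included larger fitted values, though the median of the regulators was -0.003. Of 16 tested regulators, Cdkn2a was at a log2 difference of 0.95 (SE 0.28, unadjusted p = 0.00296, edgeR adjusted p = 0.244) over both sexes. The gene encodes ARF, which stabilises p53, and also a separate cell cycle inhibitor. Its counts do not tell these products apart. The level of Cdkn2a was 1.31 ± 0.504 CPM in heterozygous and 3.06 ± 1.16 in del/del females (SD, n = 5), and 0.814 ± 0.259 and 1.13 ± 0.412 in males (SD, n = 4), with overlap in both sexes. It had only 7 to 92 reads per library. Usp9x, whose product removes ubiquitin from MCL1, was at 143 ± 22.2 and 223 ± 33.0 CPM in heterozygous and del/del females (SD, n = 5), without overlap, and at 185 ± 15.6 and 179 ± 24.6 in males (SD, n = 4). Its log2 difference was 0.63 (SE 0.12, edgeR adjusted p = 0.0685) in females and -0.04 (SE 0.10) in males, with an interaction of 0.69 (SE 0.18, unadjusted p = 0.00102, edgeR adjusted p = 0.9998). Of 15 other p53 targets tested, the median was 0.07 over both sexes, and 4 were higher at an unadjusted p under 0.05 with 0 lower, beside 4.3% and 2.45% of all genes. They include Zmat3 at 0.43 (SE 0.14, unadjusted p = 0.00745, edgeR adjusted p = 0.413), Sesn2 at 0.28 (SE 0.10) and Phlda3 at 0.51 (SE 0.21). Of the 15 targets, 10 were above 0 and 5 below. Cdkn1a, also in this list, had lower means in del/del, with overlapping groups. It was at 18.03 ± 3.01 CPM in heterozygous and 16.54 ± 1.45 in del/del females (SD, n = 5). In males it was at 14.8 ± 2.09 and 14.3 ± 3.24 (SD, n = 4). Whether p53 activity differed was not tested.

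Between the sexes many of these genes were called, as were 42.6% of all genes. Lower in females were Bcl2a1d (-1.73, SE 0.27) and Bcl2a1b (-1.003, SE 0.20), and 8 of 13 survival receptor and signalling genes, among them Cr2 (-1.70), Rel (-0.40), Nfkb2 (-0.40) and Tnfrsf13c (-0.26), the BAFF receptor gene. Higher in females in that list were Il7r (0.80), the receptor of the cytokine that sustains B cell precursors, and Akt1 (0.38). Cr2 and Tnfrsf13c are also in the mature B cell list. Of the 17 genes in the apoptosome and caspase list 7 were higher and 2 lower in females. Furthest up was Birc5 (0.70) and furthest down Birc3 (-0.40), both inhibitor of apoptosis genes and not caspases. The p53 targets were mixed, with 3 higher and 2 lower, the regulators had 3 higher and 2 lower, and the death receptor list had 1 higher and 2 lower.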

How the data were processed

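Females and males were deposited apart, each as a gene table of raw counts with a column per library. Log2 fold changes and p-values of the authors' own comparisons were deposited too, per the file headers. The tools were TopHat after Trim Galore, bcl2fastq, FastQC and edgeR 3.32.1, and the builds mm10 and GRCm38, all per the submitters' processing notes. The counting program and strand setting are not given in the sources used here. Of 25965 rows, 56 had no identifier and held at most 0.0846% of a library's counts, and they carried symbols and stayed in. The 4 columns of group means were not used.

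Counts were tested in R 4.3.3 with edgeR 4.0.16 (filterByExpr with minimum count 10 and minimum total count 15, TMM, quasi-likelihood test, Benjamini-Hochberg adjustment), and again with DESeq2 1.42.0 and voom of limma 3.58.1. Scripts were tested on simulated data. A positive difference means higher in del/del, or in females. SE is the log2 difference over the root of F, and intervals use the fit's degrees of freedom. Log2 levels used a pseudocount of 0.5 CPM. The marker level of a list is the mean log2 CPM of its genes.

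The members, lists and tests were chosen with earlier results of these data known. Beside the members, the text names from each pathway list up to 3 genes of smallest p in the genotype fit over both sexes, and for each member the 2 genes of highest within-group correlation. Genes named for the sex difference, and Cdkn1a among the p53 targets, were chosen after their values were seen. A gene that the rule names is not reported here where it is withheld. P-values set a fitted difference against the spread between animals. Between the sexes, that difference cannot be told apart from one between the sets deposited apart.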

Additional observations from a re-analysis of the deposited data

Results flagged for a closer look

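Bak1 in the heterozygous males had 1 library apart from the others: replicate 3 read 63.6 CPM, while the other 3 lay between 74.9 and 77.1, a gap of 0.837 of the group's range, which is past Dixon's 95% limit for 4 samples. It was the only flag among 40 sets of a member and a group, and chance flags about 1 in 20 such sets.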

How the results depend on the processing

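Alternatives were another scaling, no or a stricter filter, DESeq2, voom, covariates for marker lists, pairing by animal number and leaving out each library. No genotype comparison called a member under any of them. The genes called among all tested moved, with the cause not tested. In females they were 92 with DESeq2, 18 with the erythroid covariate and 58 in a fit of all 18 libraries, and 26 to 41 leaving out a library. In males they were 49 with DESeq2, 5 with the dendritic cell covariate, and 5 to 22 leaving out a library (5 without heterozygous 1 or del/del 3, 6 without del/del 1, 9 without heterozygous 4 and 10 without del/del 4). Over both sexes they were 141 with DESeq2 and 57 to 115 leaving out a library, and for the interaction 4 with DESeq2 and 0 to 0 leaving out a library. Between the sexes they were 1359 with the cell cycle covariate, 628 with the mature B cell covariate, 3533 in heterozygous libraries only, and 5378 to 6454 leaving out a library. Per kb of genomic span in place of exon, the levels were 185 for Mcl1, 10.4 for Bax, 8.74 for Bak1, 2.40 for Bcl2l1, 2.02 for Bid, 0.471 for Bcl2, 2.03 for Bad, 1.46 for Bcl2l11, 1.98 for Pmaip1 and 0.542 for Bbc3.

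The labels state no pairs. Deviations of animals paired by nearest number correlated between -0.0374 and 0.344 in females and between 0.121 and 0.346 in males, and with this replicate block the calls were 23 in females, 13 in males (9 of the 16 unblocked calls among them), 88 over both sexes and 0 for the interaction, none a member.

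Signs of members turned as follows, all of uncalled differences except Bcl2 between the sexes, which was called at -0.80. In females they did so with the erythroid covariate for Mcl1 (-0.016) and Bid (0.024), with the dendritic cell covariate for Bcl2 (-0.058) and Bcl2l1 (0.027), and with the cell cycle covariate for Bcl2 (-0.15), Bcl2l1 (0.057) and Mcl1 (-0.052). In males Mcl1 turned with the dendritic cell covariate (-0.057). Over both sexes Bad turned with the stricter filter (-0.0050), Mcl1 (-0.033) and Bid (-0.027) with the dendritic cell covariate, and Mcl1 (-0.012) and Bid (-0.014) with the cell cycle covariate. The interaction turned for Bak1 with the stricter filter (-0.0016) and for Bcl2 with voom (-0.070), the dendritic cell (-0.049), cell cycle (-0.17) and mature B cell (-0.090) covariates and the replicate block (-0.053). Between the sexes Bbc3 turned with the dendritic cell covariate (-0.084), Mcl1 (0.14) and Bid (0.012) with the cell cycle covariate, and Bcl2 (0.26), Mcl1 (0.26), Bid (0.13) and Pmaip1 (0.26) with the mature B cell covariate. Leaving out a library, signs turned within -0.095 to 0.029 for Bcl2l1, -0.044 to 0.014 for Bcl2l11, -0.11 to 0.0035 for Bid and -0.019 to 0.11 for Bad in females, within -0.026 to 0.058 for Mcl1 and -0.077 to 0.18 for Bcl2l11 in males, within -0.040 to 0.066 for Bcl2l11, -0.0053 to 0.053 for Bid and -0.030 to 0.031 for Bad over both sexes, and within -0.17 to 0.21 for Bcl2, -0.060 to 0.072 for Bak1 and -0.18 to 0.074 for Bcl2l11 in the interaction. Values of uncalled genotype differences also moved by over 1.5 times, leaving out a library, without a change of sign: Bcl2 in females between 0.072 (without del/del 5) and 0.46 (without del/del 2), Bbc3 in males between 0.11 (without del/del 2) and 0.42 (without heterozygous 2), Bcl2l1 in males between -0.43 (without heterozygous 4) and -0.18 (without del/del 4), and Pmaip1 in females up to 0.50 (without heterozygous 4). Covariates also moved such values without a change of sign, of which examples follow. Bcl2 over both sexes went from 0.27 to 0.014 with the cell cycle and 0.058 with the dendritic cell covariate. With the dendritic cell covariate in males, Bcl2l1 went from -0.32 to -0.63, Bcl2l11 from 0.08 to 0.36 and Bcl2 from 0.26 to 0.42. Pmaip1 in females went from 0.31 to 0.59 with the erythroid covariate. With 35 to 163 reads per library, Bbc3 is limited most by depth.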
